A study of Mus musculus with 11 samples.

Results

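The circadian clock genes described here are 10 named members of the 34745 entries in the deposited table: *Dbp*, *Tef*, *Per1*, *Per2*, *Per3*, *Nr1d1*, *Nr1d2*, *Arntl* (the gene of BMAL1), *Npas2* and *Cry1*. They were chosen by name, from both phases of the clock, and each was followed in all 11 libraries. All libraries were made from the β-cells of 8-week-old male mice of the C57BL/6 x 129SV strain, sorted from dispersed islets by the GFP that *RIP-Cre* switches on at *Rosa26*. WT mice (n = 3 libraries) carried *RIP-Cre*, *Rosa26* GFP and intact *Raptor*. The other groups, βRapKOGFP (BetaRapKOGFP-/- in the labels), carried the same transgenes and had lost *Raptor*, which encodes a scaffold of the kinase complex mTORC1, in cells that express Cre from the rat insulin promoter. Those without an insulin pellet were diabetic (KO, n = 4), and those that carried an insulin pellet for 4 weeks were euglycemic (KI, n = 4). The number of mice behind a library is not given in the sources used here, so p-values measure the spread between libraries. Each library is a single collection at an hour that these sources do not give, so a different level and a different phase of a rhythm cannot be told apart.

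The clock of mammalian cells is a loop of transcription factors. BMAL1 pairs with CLOCK or its relative NPAS2 and switches on genes through the E-box, among them the *Per* and *Cry* genes, whose proteins then inhibit the pair. A further loop runs through the nuclear receptors REV-ERBα (*Nr1d1*) and REV-ERBβ (*Nr1d2*), which repress *Arntl*, *Npas2* and *Cry1*, while the ROR receptors compete for the same element, the RORE, and activate. DBP and TEF are output factors that bind the D-box. In many tissues *Dbp*, *Tef*, *Nr1d1*, *Nr1d2* and the *Per* genes peak at nearly opposite hours to *Arntl* and *Npas2*. In islets this clock is known to take part in the timing of insulin secretion.

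Among the clock genes, *Dbp* was lower in both groups of mutant β-cells and was the one member that passed the test. At the level of single libraries, some members lay wholly outside the WT range in a mutant group, whereas *Arntl* overlapped it in both. *Dbp* and *Nr1d1* were lower than every WT library in all 8 mutant libraries, as were 1.78% of all genes tested, and *Cry1* was higher than every WT library in all 8, as were 1.90%. *Tef* and *Nr1d2* lay below every WT library in the KI group, as did 5.02% of all genes tested. Tests were made with limma on log2(FPKM + 1) for the 11251 genes that reached an FPKM of 1 in 3 libraries or more, and a call needed a Benjamini-Hochberg adjusted p no higher than 0.05 together with a 1.5-fold change. All 10 members are in the table and 9 entered the fit, whereas *Per3* was below the minimum. Of the 9, 1 was called in KO against WT, where 0.969% of all genes tested were called. Likewise 1 was called in KI against WT, with 0.551% of all genes, 0 in KO against KI, with 0.00889%, and 1 in both mutant groups together against WT, with 1.05%. At an unadjusted p of at most 0.05 and the same fold, 6 of 9 members passed in KO against WT (8.26% of all genes), 7 in KI against WT (9.92%), 2 in KO against KI (12.0%) and 7 in both mutant groups together against WT (6.92%). *Npas2*, which reached the minimum only through mutant libraries, is 1 of those counted in each comparison against WT and lends them no support.

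**Figure D1:**
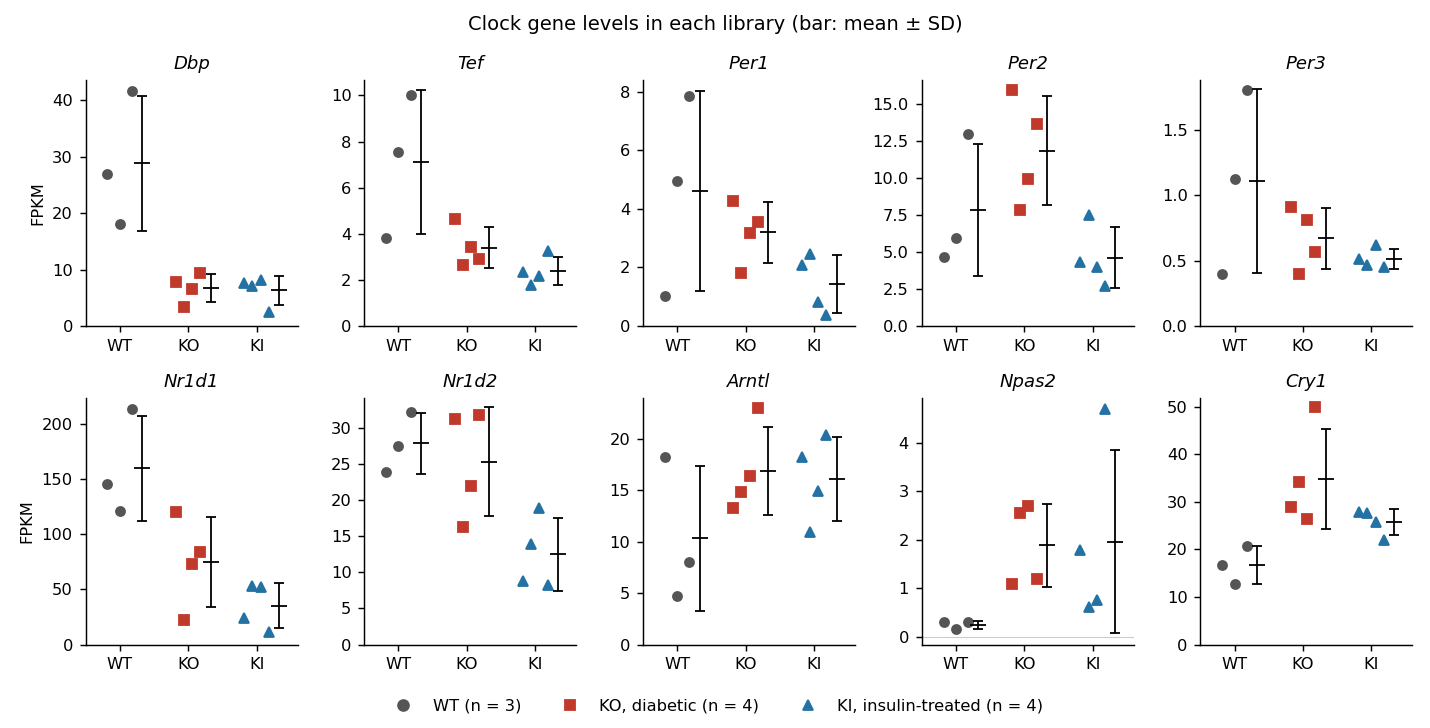
FPKM of the 10 clock genes, on the vertical axis of each panel, in WT, KO (diabetic βRapKOGFP) and KI (euglycemic βRapKOGFP) libraries. Each symbol is 1 library and each bar is the group mean ± SD. *Dbp* lay between 18.1 and 41.7 in WT and at or below 9.36 in every mutant library, whereas the WT values of *Npas2* were all below 0.300.

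The level of the clock genes, as FPKM, which is per length, spanned a wide range. In WT the order of the means ran from *Nr1d1* (160 ± 47.7, SD, n = 3) through *Dbp*, *Nr1d2*, *Cry1*, *Arntl*, *Per2*, *Tef*, *Per1* and *Per3* to *Npas2* (0.249 ± 0.0828, SD, n = 3). The libraries of neighbours in that order overlapped except between *Nr1d1* and *Dbp*, between *Nr1d2* and *Cry1* and between *Per3* and *Npas2*. In KO the order was *Nr1d1*, *Cry1*, *Nr1d2*, *Arntl*, *Per2*, *Dbp*, *Tef*, *Per1*, *Npas2* and *Per3*, and the only neighbours that did not overlap were *Npas2* and *Per3*. In KI it was *Nr1d1*, *Cry1*, *Arntl*, *Nr1d2*, *Dbp*, *Per2*, *Tef*, *Npas2*, *Per1* and *Per3*, with no overlap between *Cry1* and *Arntl* or between *Nr1d2* and *Dbp*. *Dbp*, the second gene of WT, was thus the sixth of KO and the fifth of KI.

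Some properties of the libraries bear on these values. *Rptor*, the deleted gene, had an FPKM of 0.948 to 1.79 in WT, 0.485 to 0.937 in KO and 0.423 to 0.623 in KI. KI replicate 4 stood apart, with a mean distance to the other libraries of 90.1 on the log2 scale against 63.0 to 71.5 for the rest, and it also had the highest acinar marker sum and the lowest heat shock sum. That heat shock sum was 229, near those of KO replicate 2 (295) and KI replicate 3 (447), against 1069 to 5309 in the rest. The 8 β-cell markers summed to an FPKM of 156520 to 190541 in WT, 137722 to 206198 in KO and 116568 to 201843 in KI. Markers of other islet cells were higher in every mutant library than in any WT library: the 4 α-cell markers summed to 745 to 2128 in WT, 3442 to 14098 in KO and 4109 to 22950 in KI, and the 2 δ-cell markers to 1150 to 2472, 4870 to 12077 and 4775 to 13791. The acinar sum (8 markers) was 1.76 to 29.4 in WT, 2.39 to 1882 in KO and 1.32 to 3197 in KI, and the sums of the duct markers were 3.75 to 6.76, 17.0 to 30.6 and 29.8 to 42.1. The endothelial, immune and mesenchymal sums were highest in KO replicate 1, at 49.7, 63.2 and 7.31. Within those lists *Cdh5* and *Eng* (endothelial), *Ptprc* (immune) and *Pdgfrb* (mesenchymal) stayed below an FPKM of 1 in every library. None of the α, δ, acinar or duct markers was below 1 in every library, and the part of these cells in the clock gene values was not tested. In sorted bulk RNA, fewer cells of a type and less RNA per cell cannot be told apart.

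*Dbp* (ENSMUSG00000059824) lies on the plus strand at chr7:45705088-45710203 of GRCm38 (mm10) and encodes the D-box activator DBP, a factor with one of the strongest daily rhythms in most tissues. Its FPKM was 26.9, 18.1 and 41.7 in the WT libraries, 7.77, 3.39, 6.48 and 9.36 in KO and 7.62, 7.09, 8.13 and 2.51 in KI. The highest mutant library, KO replicate 4, was well below the lowest WT library, and the KO and KI values overlapped almost entirely. The WT mean was 28.9 ± 12.0 (SD, n = 3), against 6.75 ± 2.53 for KO and 6.33 ± 2.59 for KI (SD, n = 4 each), a WT level 4.28 times that of KO and 4.56 times that of KI. *Dbp* fell in KO against WT by 1.94 on the log2 scale (SE 0.38, adjusted p = 0.0357, limma) and in both mutant groups together by 1.99 (SE 0.34, adjusted p = 0.0138). KO and KI differed by 0.11 (95% interval −0.66 to 0.87, adjusted p = 0.895). The call in KO against WT was lost without WT replicate 1, 2 or 3 or KO replicate 1, 2 or 3 (adjusted p 0.0611 to 0.164), and the call in KI against WT without WT replicate 2 or 3, KO replicate 1 or 3 or KI replicate 1, 2 or 3 (0.0510 to 0.222), although the direction was the same throughout. In both mutant groups together, leaving out single libraries lost it for WT replicate 3 only (adjusted p = 0.122), and with no filter on low values it was lost as well (adjusted p = 0.0871). The call in KO was lost also with no filter (adjusted p = 0.152), a pseudocount of 0.1 (0.0536), TPM (0.0553) and the replicate number as a block (0.0770), and that in KI with no filter (0.170), a pseudocount of 0.1 (0.0580), only the groups compared (0.0913) and the block (0.102).

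The exons of *Dbp* share 539 bases, 18.01% of their length, with *Sphk2*, a sphingosine kinase gene on the opposite strand. *Sphk2* had an FPKM of 9.63 to 13.8 in WT, 6.56 to 9.26 in KO and 5.49 to 6.68 in KI, so its WT libraries were also the highest. The library kit named in the methods does not mark strand, and reads of the shared stretch cannot be told apart.

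*Tef* (ENSMUSG00000022389, chr15:81802421-81826863, plus strand) encodes a D-box activator of the same family as DBP. The WT libraries had an FPKM of 3.80, 7.56 and 10.02, the KO libraries 4.66, 2.63, 3.41 and 2.90, and the KI libraries 2.33, 1.79, 2.18 and 3.24. All 4 KI libraries were below WT, while in KO replicate 1 alone exceeded the lowest WT library. The log2 difference from WT was −0.82 (SE 0.28, adjusted p = 0.233) in KO and −1.20 (SE 0.28, adjusted p = 0.0899) in KI, and neither passed. Without WT replicate 1 the KI difference was −1.54 and passed (adjusted p = 0.0125), in a fit that called 4.76% of all genes in KI against WT, whereas without WT replicate 3 it was −0.94 (adjusted p = 0.453). With both mutant groups together the difference was −1.01 (adjusted p = 0.0811), which passed without WT replicate 1 (−1.35, adjusted p = 0.0214) or KI replicate 4 (−1.07, adjusted p = 0.0436).

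*Nr1d1* (ENSMUSG00000020889, chr11:98767932-98775333, minus strand) and *Nr1d2* (ENSMUSG00000021775, chr14:18204054-18239127, minus strand) encode the heme-binding repressors REV-ERBα and REV-ERBβ. *Nr1d1* had an FPKM of 145, 121 and 213 in WT, 120.3, 21.8, 72.5 and 83.7 in KO, and 23.9, 53.1, 52.0 and 11.7 in KI. Every mutant library was below every WT library, but KO replicate 1 missed the lowest WT value by less than 1 FPKM. The mean in WT was 2.14 times that in KO and 4.54 times that in KI. On the log2 scale *Nr1d1* differed from WT by −1.28 in KO (SE 0.56, adjusted p = 0.400) and by −2.34 in KI (SE 0.56, adjusted p = 0.110), which on this scale, one that understates *Npas2*, was the widest difference of any member with also the widest error. Without KO replicate 2 the KO difference was −0.78 (adjusted p = 0.623). Among the fits with 1 library left out, the KI difference passed only without KO replicate 2 (adjusted p = 0.0462). For *Dbp* in the same comparison the SE was 0.38.

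For *Nr1d2* the FPKM was 23.9, 27.4 and 32.2 in WT, 31.3, 16.2, 22.0 and 31.7 in KO, and 8.76, 14.0, 18.9 and 8.19 in KI. The KO libraries overlapped the WT range and reached below it, while the KI libraries were all below WT. The difference from WT was −0.17 in KO (95% interval −0.82 to 0.47, adjusted p = 0.877) and −1.16 in KI (SE 0.30, adjusted p = 0.132). KO exceeded KI by 0.99 (SE 0.28, unadjusted p = 0.00335, adjusted p = 0.126), which did not pass.

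The promoter of *Nr1d1* held one of the letters searched for in the RefSeq promoters (GRCm38.p6, 250 bases before to 50 after each start), where 9 of the 10 members were found with 12 promoters in all. The motifs were the E-box CACGTG (in 7.15% of all 32817 promoters of the same length), the E-box-like CACGTT (4.69%), the D-box TTANGTAA (2.32%) and the RORE, AANTN followed by GGTCA (0.603%), each on both strands. The *Nr1d1* match begins at position −28 from the start site, and the sequence is shown because it holds an E-box-like element beside the start of the gene with the largest level (chr11:98775378-98775445, minus strand, match in capitals).

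Nr1d1: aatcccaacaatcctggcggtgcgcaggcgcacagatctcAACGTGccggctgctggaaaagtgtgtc

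*Nr1d1* shares 263 exon bases, 8.55% of its length, with *Thra*, a thyroid hormone receptor gene on the opposite strand. The FPKM of *Thra* was 1.82 to 6.45 in WT, 2.62 to 3.55 in KO and 1.82 to 2.54 in KI, far below that of *Nr1d1* in each library. *Tef* shares 2.45% of its exon bases with the antisense gene *Gm17597*, which had an FPKM of 0 to 0.323, and *Arntl* 0.439% with *Gm45355*, which was not analysed here.

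**Figure D2:**
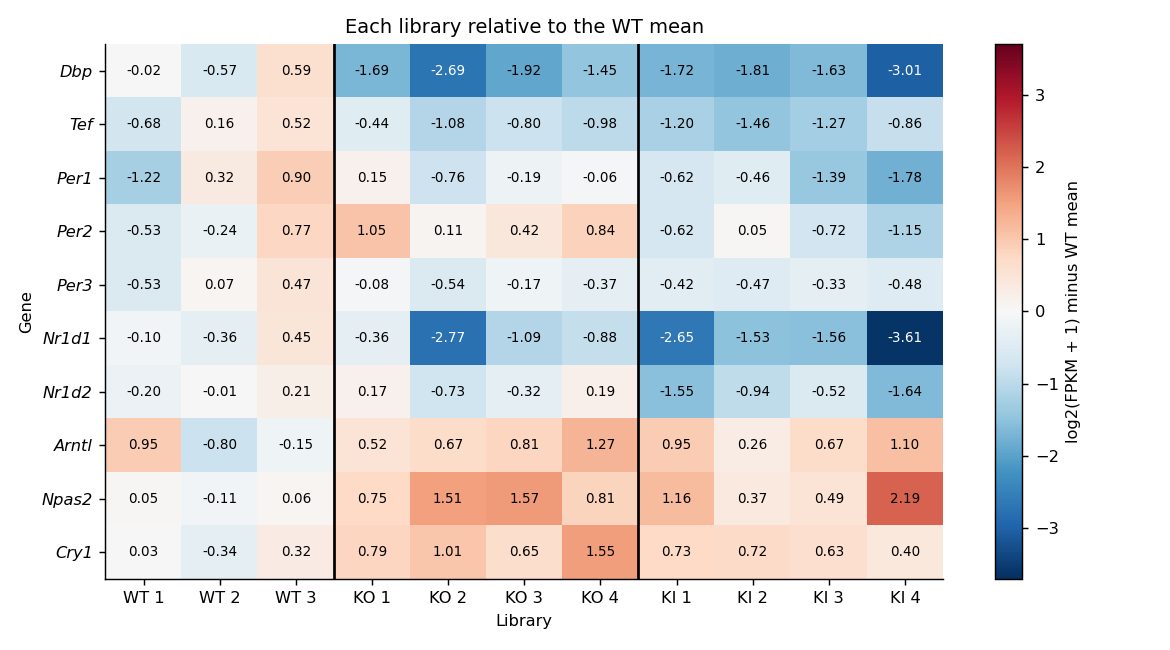
Difference of log2(FPKM + 1) from the WT mean for each clock gene (rows) in each library (columns), in blue where lower and red where higher. In KI replicate 4 *Nr1d1* was −3.61 and *Npas2* 2.19, the lowest and the highest value of the map, and *Dbp* was between −1.45 and −3.01 in all mutant libraries.

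The *Per* genes encode the proteins that, with CRY, inhibit BMAL1 and its partner. None of them passed in any comparison. *Per1* (ENSMUSG00000020893, chr11:69095217-69109960, plus strand) had an FPKM of 1.03, 4.94 and 7.85 in WT, 4.27, 1.81, 3.16 and 3.55 in KO, and 2.08, 2.45, 0.805 and 0.382 in KI. WT replicate 1 was as low as the KI libraries, so all groups overlapped. The difference from WT was −0.21 in KO (95% interval −1.19 to 0.76, adjusted p = 0.901) and −1.06 in KI (SE 0.45, adjusted p = 0.320). Without WT replicate 1 the KI difference was −1.68 and passed (adjusted p = 0.0358, with 4.76% of all genes called). Without WT replicate 3 it was −0.61 (adjusted p = 0.863), and the KO difference changed sign to 0.24.

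*Per1* is also known as a gene that responds to acute stimuli, so the 10 immediate early genes are given beside it. Their summed FPKM was 1406, 3843 and 3300 in WT, 1793, 1107, 1872 and 1223 in KO, and 5587, 2250, 1071 and 1098 in KI. WT replicate 1 and KO replicate 2 had both the lowest *Per1* and the lowest such sum of their group, and KI replicates 3 and 4 were lowest in both in KI. The order of the other libraries was not shared: KO replicate 4 had the second lowest sum and the second highest *Per1* of KO, and WT replicate 2 and KI replicate 1 had the highest sum of their group but not the highest *Per1*. The heat shock genes summed to 1069, 3883 and 3050 in WT, 3467, 295, 3552 and 3443 in KO, and 5309, 5172, 447 and 229 in KI. This sum too was lowest in WT replicate 1, in KO replicate 2 and in KI replicates 3 and 4. WT replicate 2, KO replicate 3 and KI replicate 1 had the highest heat shock sum of their group but not the highest *Per1*. The part of either sum in the values of *Per1* was not tested.

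*Per2* (ENSMUSG00000055866, chr1:91415982-91459324, minus strand) was the member in which the mutant groups parted most by rank. Its FPKM was 4.68, 5.97 and 13.0 in WT, 16.0, 7.84, 9.97 and 13.7 in KO, and 4.34, 7.51, 4.00 and 2.69 in KI. Every KO library was above every KI library, and WT overlapped both. *Per2* differed from WT by 0.60 in KO (adjusted p = 0.536) and by −0.61 in KI (adjusted p = 0.451). Without WT replicate 3 these differences were 0.99 and −0.23, and without WT replicate 1 they were 0.34 and −0.88. The test of KO against KI gave 1.21 (SE 0.32, 95% interval 0.52 to 1.91, unadjusted p = 0.00233, adjusted p = 0.123), which did not pass. *Per2* was 1 of 10 members with KO above KI without overlap, a pattern seen in 6.85% of all genes tested.

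*Per3* (ENSMUSG00000028957, chr4:151003652-151044665, minus strand) reached an FPKM of 1 in 2 libraries and was compared with exact permutation tests, two-sided. Its FPKM was 0.401, 1.13 and 1.81 in WT, 0.914, 0.394, 0.808 and 0.570 in KO, and 0.515, 0.4662, 0.618 and 0.455 in KI. These levels correspond to about 23 to 147 fragments a library by the depth inferred from the table. The groups overlapped through WT replicate 1, which was lower than all but 1 of the mutant libraries. The difference of log2(FPKM + 1) was −0.29 in KO (exact p = 0.343) and −0.42 in KI (exact p = 0.171), where 0.0286 is the smallest p that 4 libraries against 3 can give. With both mutant groups together it was −0.36 (exact p = 0.0667), and it was −0.62 without WT replicate 1 (exact p = 0.0222) and −0.12 without WT replicate 3 (exact p = 0.533).

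The promoter of *Per3* is shown because it is the one among those of the members with the D-box, which DBP and TEF bind, and it holds it in 2 copies, beginning at positions −205 and −158 from the start (chr4:151044776-151044910, minus strand, D-boxes in capitals). A match describes the letters only.

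Per3: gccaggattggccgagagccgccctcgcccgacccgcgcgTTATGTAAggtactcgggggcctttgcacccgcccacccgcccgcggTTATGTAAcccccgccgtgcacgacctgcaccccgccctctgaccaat

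*Arntl* and *Npas2*, the genes of the other phase, and also *Cry1* had higher means in both mutant groups than in WT. *Arntl* (ENSMUSG00000055116, chr7:113207465-113314126, plus strand), which encodes BMAL1, had an FPKM of 18.2, 4.72 and 8.00 in WT, 13.3, 14.8, 16.4 and 23.0 in KO, and 18.2, 10.97, 14.9 and 20.4 in KI. All 8 mutant libraries were above WT replicates 2 and 3, whereas WT replicate 1 lay among the mutant values. The difference from WT was 0.81 in KO (SE 0.35, adjusted p = 0.391) and 0.75 in KI (SE 0.35, adjusted p = 0.368), and KO and KI differed by 0.07 (95% interval −0.63 to 0.77, adjusted p = 0.928). Without WT replicate 1 the KI difference was 1.22 (adjusted p = 0.0409) and that of both mutant groups together was 1.25 (adjusted p = 0.0471), and both passed, where 4.76% and 1.28% of all genes were called. Without WT replicate 2 the same differences were 0.35 (adjusted p = 0.847) and 0.38 (adjusted p = 0.933), and that of KO was 0.41 (adjusted p = 0.730). WT replicate 1 was also the WT library with the lowest *Tef*, *Per1*, *Per2* and *Per3*.

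*Arntl* was the only member whose promoter held the RORE, the element through which REV-ERB and ROR act. The match starts 28 bases after the start of one of its 2 RefSeq promoters (chr7:113207528-113207557, plus strand, element in capitals). A second copy with 1 changed base begins at position −9 from the same start (chr7:113207492-113207521). It is found only when 1 further position of the RORE is left free, as AANTN followed by GGTNA (2.24% of all promoters), letters that were chosen after the sequence was seen.

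Arntl RORE: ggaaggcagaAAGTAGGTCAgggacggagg
Arntl second copy: attggtcggaAAGTAGGTTAgtggtgcgac

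*Npas2* (ENSMUSG00000026077, chr1:39193731-39363236, plus strand) encodes a partner of BMAL1 that can stand in for CLOCK. Its FPKM was 0.295, 0.153 and 0.299 in WT, 1.09, 2.55, 2.70 and 1.19 in KO, and 1.79, 0.613, 0.755 and 4.69 in KI. Each mutant library exceeded each WT library. With KI replicate 4 included, the KI libraries had the widest spread of any group and member, a coefficient of variation of 96.5%. Against the WT mean of 0.249, KO averaged 1.88 ± 0.858 and KI 1.96 ± 1.89 (SD, n = 4 each), which is 7.56 and 7.88 times the WT mean. Without KI replicate 4, the library that stood apart, the KI mean was 1.05 ± 0.640 (SD, n = 3), 4.22 times that of WT. At the depth of these libraries the WT values are about 8 to 17 fragments, and *Npas2* passed the minimum for the fit only through mutant libraries. The differences from WT on the log2(FPKM + 1) scale, 1.16 in KO (SE 0.38, adjusted p = 0.222) and 1.05 in KI (SE 0.38, adjusted p = 0.248), did not pass. Without KI replicate 4 they were 1.16 (adjusted p = 0.0405) and 0.67 (adjusted p = 0.283), of which the first was past the threshold, and since mutant libraries brought *Npas2* into the fit nothing rests on that call. That scale understates a change at so low a level, and with a pseudocount of 0.1 the differences were 2.43 (adjusted p = 0.112) and 2.16 (adjusted p = 0.175).

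*Cry1* (ENSMUSG00000020038, chr10:85131700-85185064, minus strand) encodes a repressor of BMAL1 and CLOCK with a later peak than *Per* genes. In WT its FPKM was 16.7, 12.7 and 20.7, in KO 29.0, 34.2, 26.3 and 49.96, and in KI 27.9, 27.6, 25.9 and 21.9. No mutant library fell within the WT range, and the lowest of them, KI replicate 4, was close to its top. The KO mean was 2.09 times and the KI mean 1.55 times that of WT. The difference was 1.001 in KO (SE 0.24, unadjusted p = 0.000958, adjusted p = 0.0727) and 0.62 in KI (SE 0.24, adjusted p = 0.275), and neither passed. When KI replicate 4, the library that stood apart, was left out of the fit, *Cry1* passed in KO against WT with the same difference (adjusted p = 0.0487), beside *Dbp* (adjusted p = 0.00846) and *Npas2*, where 1.87% of all genes were called, while *Dbp* remained the 1 member called in KI against WT (−1.72, adjusted p = 0.0376).

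The *Cry1* promoter is shown because it is the only one with both an E-box, which begins at position −60 from the start site, and an E-box-like element, at position −79 (chr10:85185069-85185173, minus strand, both in capitals). E-boxes were also found in promoters of *Tef* and *Per1*.

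Cry1: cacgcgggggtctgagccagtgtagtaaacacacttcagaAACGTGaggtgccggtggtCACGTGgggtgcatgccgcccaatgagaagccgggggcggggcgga

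**Figure D3:**
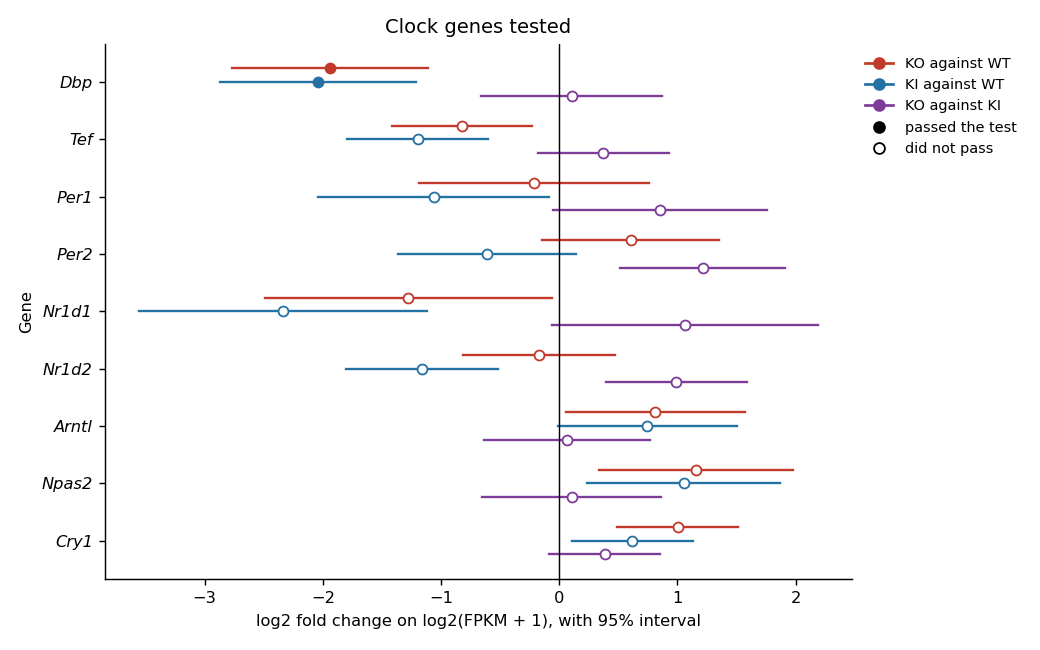
Log2 fold change of the 9 clock genes tested, on log2(FPKM + 1), with the 95% interval from limma, for KO against WT, KI against WT and KO against KI. Filled points passed the test, and only those of *Dbp* against WT are filled, at −1.94 and −2.04.

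Members were also counted by groups that did not overlap. In KO against WT 2 of the 10 members were above WT in every library and 2 below, against 6.67% and 6.88% of all genes tested. In KI against WT 2 were above and 4 below, against 5.91% and 5.02% of all genes. *Npas2* is 1 of those above in both. In KO against KI 1 was above, *Per2*, and 0 below, where 7.42% of all genes were below.

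Some members were also set against each other inside each library, for pairs chosen after their values were seen and with no test. On log2(FPKM + 1), *Dbp* exceeded *Cry1* by 0.47 to 0.98 in the WT libraries and was below it by 1.56 to 3.0 in all 8 mutant libraries. As *Dbp* lay below and *Cry1* above every WT library in all 8, their difference had to be lower there than in WT, and it adds no further result. *Dbp* exceeded *Arntl* by 0.54, 1.73 and 2.25 in WT and was below it in every mutant library, with differences of −0.57 to −2.61. *Nr1d1* exceeded *Arntl* by 2.92 to 4.57 in WT and by 0.53 to 3.09 in KO, and the difference was 0.37, 2.18, 1.74 and −0.75 in KI. KI replicate 4 was thus the single library in which *Arntl* was above *Nr1d1*. It had as well the lowest *Dbp*, *Per1*, *Per2*, *Nr1d1* and *Nr1d2* and the highest *Npas2* of all libraries. In the same library *Tef* was the highest of KI (3.24) and *Cry1* the lowest of the mutant libraries (21.9). Its inferred depth, 9506218 fragments, was also the lowest of all libraries.

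Of the 45 pairs of members, 8 had a Pearson correlation of log2(FPKM + 1) with an adjusted permutation p of at most 0.05. Differences between the groups enter these values, and the permutations did not keep libraries within their group. The share over pairs of all genes tested was not computed, so the count shows nothing particular to the members. *Nr1d1*, for example, was the 41st of 11250 genes most like *Dbp*. *Nr1d1* and *Nr1d2*, the REV-ERB genes, had r = 0.894 (n = 11 libraries, adjusted permutation p = 0.0124) and rho = 0.864 (adjusted permutation p = 0.0313). Without the 2 libraries farthest from the median of *Nr1d1*, r was 0.884, and over deviations from the group means it was 0.887. *Per1* with *Per3* had r = 0.808 (adjusted permutation p = 0.0131), rho = 0.782 (adjusted permutation p = 0.0505) and, without the 2 farthest libraries, r = 0.721. Over deviations from the group means it was 0.789. *Per1* with *Per2* had r = 0.805 (adjusted permutation p = 0.0204), rho = 0.764 (adjusted permutation p = 0.0505) and r = 0.686 without the 2 farthest, or 0.853 over the deviations. *Tef* with *Per3* had r = 0.874 (adjusted permutation p = 0.0131), rho = 0.573 (adjusted permutation p = 0.188) and r = 0.471 without the 2 farthest. Over the deviations from group means, however, it was 0.868. *Per2* with *Nr1d2* had r = 0.747 (adjusted permutation p = 0.0479), rho = 0.736 (adjusted permutation p = 0.0639) and r = 0.576 without the 2 farthest, or 0.638 over the deviations. The other 3 pairs that passed hold *Dbp* or *Npas2*, and *Npas2* reached the minimum for the fit only through mutant libraries.

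For *Dbp* and *Npas2*, whose WT and mutant libraries form separate clusters, the deviations from group means are given as a description. Within groups, *Dbp* had r = 0.851 with *Nr1d1*, 0.735 with *Per2* and 0.712 with *Nr1d2*, which without KI replicate 4 were 0.768, 0.671 and 0.621. With *Cry1* the value was positive as well (r = 0.588, and 0.553 without that library), and with *Tef* it was 0.013, or 0.367 without it. *Npas2* ran opposite to *Nr1d1* (r = −0.801) and *Nr1d2* (r = −0.803), and without KI replicate 4 these were −0.697 and −0.831. Between *Npas2* and *Dbp* r was −0.687 and, without that library, −0.340. *Arntl* against *Nr1d1* had r = −0.183 within groups, or −0.034 without KI replicate 4, and r = −0.479 over all libraries (adjusted permutation p = 0.194, rho = −0.373, adjusted permutation p = 0.357, r = −0.418 without the 2 farthest).

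**Figure D4:**
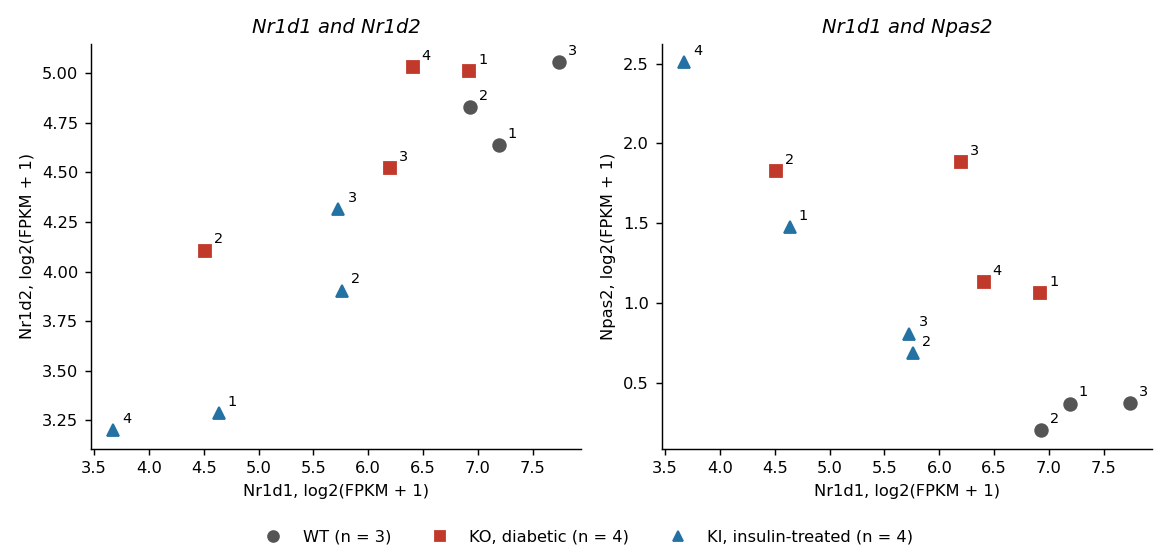
*Nr1d2* (left) and *Npas2* (right) against *Nr1d1*, as log2(FPKM + 1), with 1 point for each of the 11 libraries and its replicate number beside it. Over the 11 libraries *Nr1d2* climbs with *Nr1d1*, and *Npas2* is highest in KI replicate 4, the library with the lowest *Nr1d1*.

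Among all genes with a mean FPKM of at least 5, those whose pattern over the 11 libraries was most like that of *Dbp* were *Sqle* (r = 0.920), *Cryl1* (0.917), *Relt* (0.916), *Gipr* (0.909) and *Klhl32* (0.907), among 5598 genes ranked. Differences between the groups enter these values too. Over deviations from the group means they were 0.883, 0.727, 0.699, 0.610 and 0.644. *Gipr*, the receptor of the incretin GIP, averaged 24.1 ± 7.97 for WT (SD, n = 3), 6.95 ± 2.30 for KO and 6.44 ± 2.55 for KI (SD, n = 4 each). *Sqle*, an enzyme of cholesterol synthesis, had 40.5 ± 5.10, 31.0 ± 3.44 and 28.4 ± 5.61 in the same order. For *Arntl* the most similar genes were *March5* (r = 0.894), *Gtpbp4* (0.891), *Tinf2* (0.866), *Gm4353* (0.866) and *Cdk7* (0.858), with 0.851 to 0.909 over deviations from the group means. *Bhlhe41*, which encodes the clock repressor DEC2, was the thirteenth most opposite to *Arntl* (r = −0.806) among all 11250 other genes tested.

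Beyond the members, 17 other regulators and 6 output genes of the clock were examined, of which 20 in all could be tested and *Hlf*, *Rorb* and *Timeless* were too low. By limma 0 of these 20 passed in each comparison. At an unadjusted p of at most 0.05 and the same fold there were 0 in KO against WT (8.26% of all genes tested), 2 in KI against WT (9.92%), 1 in KO against KI (12.0%) and 2 in both mutant groups together against WT (6.92%). The median log2 change of the 20 genes was 0.033 in KO and −0.14 in KI against WT, beside 0.0063 and −0.010 over all genes tested.

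The largest differences among them, in both mutant groups together, were −0.88 for *Bhlhe41* (adjusted p = 0.405), −0.74 for *Cry2* (adjusted p = 0.664), −0.67 for *Tsc22d3* (adjusted p = 0.349) and −0.44 for *Bhlhe40* (adjusted p = 0.817), and none of these passed. With single libraries left out, *Cry2* ran from −1.15 (without WT replicate 1) to −0.44 (without WT replicate 3), *Tsc22d3* from −0.94 (without WT replicate 2) to −0.38 (without WT replicate 1) and *Bhlhe40* from −0.63 (without WT replicate 1) to −0.22 (without KI replicate 4). *Bhlhe41* had an FPKM of 1.88, 7.28 and 7.08 in WT, 1.25 to 3.78 in KO and 0.636 to 3.40 in KI, with WT replicate 1 again among the mutant values. In KI against WT it differed by −1.07, and without WT replicate 1 by −1.57, which passed (adjusted p = 0.0496, with 4.76% of all genes called), while without WT replicate 2 it was −0.81 (adjusted p = 0.742). *Cry2*, the other cryptochrome, had 35.4 to 96.2 in WT, 23.5 to 70.4 in KO and 11.1 to 68.2 in KI, the groups overlapping. *Tsc22d3*, a glucocorticoid-induced gene with a daily rhythm, had 28.3, 12.5 and 18.1 in WT, 8.11 to 17.5 in KO and 8.88 to 13.4 in KI. *Bhlhe40*, which encodes the clock repressor DEC1, had 5.90 to 9.94 in WT, 2.24 to 11.7 in KO and 1.53 to 11.4 in KI. *Clock*, the usual partner of BMAL1, had an FPKM of 0.903 to 3.17 in WT, 1.69 to 3.44 in KO and 1.18 to 1.67 in KI and did not pass in any comparison.

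**Figure D5:**
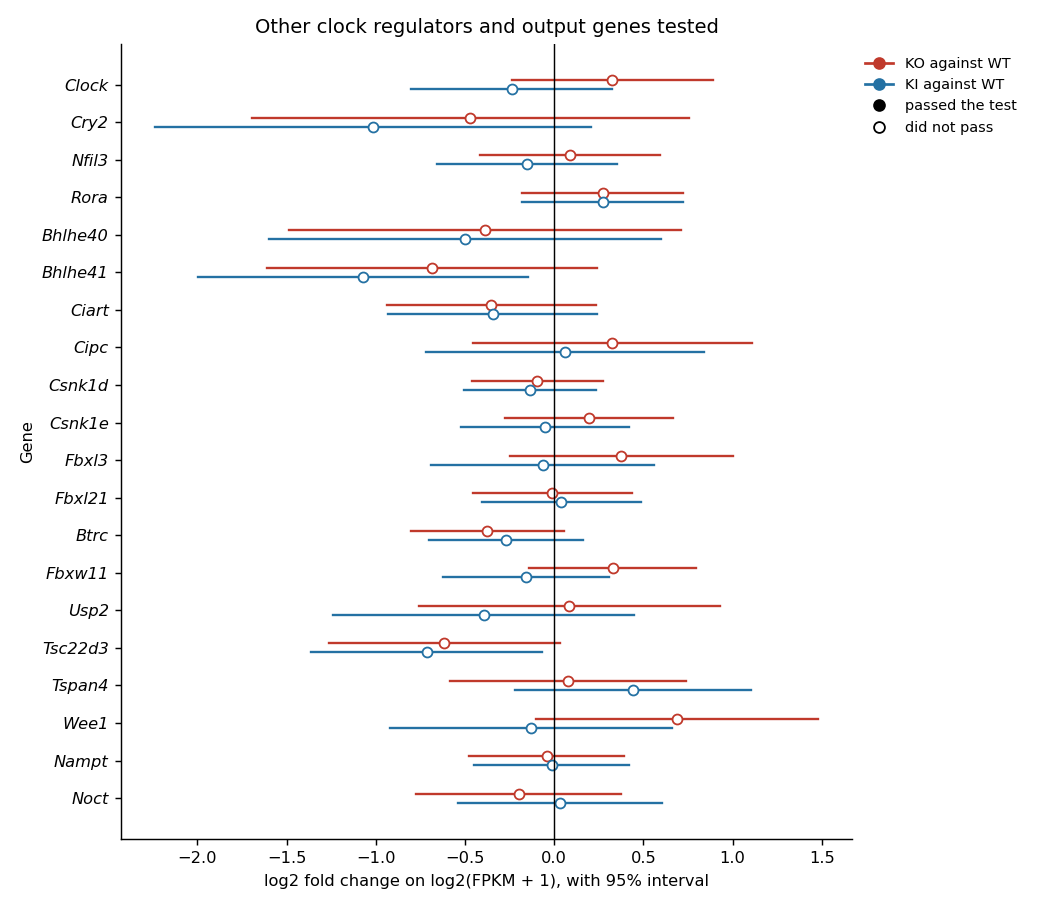
Log2 fold change, on log2(FPKM + 1), of the 20 other clock regulators and output genes tested, with the 95% interval from limma, for KO and KI against WT. All points are open, which marks genes that did not pass the test, and *Bhlhe41* in KI, at −1.07, lies farthest from 0.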

How the data were processed

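Poly-A RNA from GFP-sorted β-cells gave 3 WT, 4 KO and 4 KI libraries. The authors deposited 1 table of FPKM values per gene and library. The methods name Tophat and Cufflinks, whereas the submitters' processing notes name HISAT2 2.0.4, StringTie 1.3.0 and edgeR, both with mm10. Of 34745 entries 17 with a repeated symbol were left out. Fragment totals are not in the table and were inferred from the steps of low values in single-exon genes as 9506218 to 16658952 a library, at which 1 fragment on 1 kilobase is 0.0600 to 0.105 FPKM. Values of log2(FPKM + 1) were fitted with limma 3.58.1 in R 4.3.3 (lmFit, eBayes with a trend), all 11 libraries in one fit, which was tested on simulated data. Genes below the minimum were compared with exact permutation tests, and correlations used 100000 permutations (scipy 1.17.1, Python 3.11.15). Overlaps and positions are from GENCODE vM21. Named were all members, the pathway genes called or with the 4 largest changes, and the 5 genes most like *Dbp* and *Arntl*. Of the clock regulators first listed, 1 is not reported here. The members and lists were chosen with earlier results of these data known. The alternatives were other filters, pseudocounts and scalings, library weights, a replicate block, fits without the trend or with only 2 groups, calls by unadjusted p or without the fold, every entry kept, and each library left out. The p-values of the pairs of members, and the correlations and KI mean without KI replicate 4, were added after seeing the data.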

Additional observations from a re-analysis of the deposited data

Results flagged for a closer look

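One value lay far from the rest of its group. *Dbp* in KI replicate 4 had an FPKM of 2.51, and on log2(FPKM + 1) its gap to the next library was 0.873 of the range of the 4 KI libraries, above Dixon's 95% critical value for 4 values. In all, 20 groups of 4 libraries were examined over the 10 members, of which chance flags about 1 in 20. The same library stood apart over all genes. Without it *Dbp* differed from WT by −1.72 in KI (adjusted p = 0.0376, limma).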

How the results depend on the processing

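With 3 or 4 libraries a group, the calls of *Dbp* lay near the threshold, and counts of calls moved with many settings while the direction of *Dbp* against WT did not. The count of clock genes called, 1 against WT in each comparison, was 0 with no filter (KO, KI and both together, with 0.0803%, 0.0474% and 0.0839% of all genes called), 0 with a pseudocount of 0.1 (KO and KI, 0.835% and 0.453%), 0 with TPM (KO, 0.862%) and 0 with only the groups compared (KI, 0.151%). With library weights it was 5 in KO, 8 in KI, 8 in both together and 1 in KO against KI, where 4.90%, 20.3%, 9.92% and 10.8% of all genes were called, and with unadjusted p it was 6, 7, 7 and 2 (8.26%, 9.92%, 6.92% and 12.0%). Leaving out each library in turn gave 0 to 3 in KO, 0 to 4 in KI and 0 to 3 in both together. The highest came without KI replicate 4 in KO (1.87% of all genes called) and without WT replicate 1 in KI (4.76%) and in both together (1.28%). *Npas2*, which entered through mutant libraries, is 1 of those counted against WT with library weights, with unadjusted p and, in KO, without KI replicate 4. For the other clock genes the count, 0 in each comparison, was 1 with library weights and 2 with unadjusted p, both in KI and in both together, and 1 with unadjusted p in KO against KI. Leaving out each library gave 0 to 1 in KI. Replicate numbers did not pair the libraries: same-numbered libraries had a mean correlation of deviations of −0.132 (10 pairs) and 0 of 11 correlated best with their own number. With the replicate block 0 clock genes were called in KO or KI against WT, and all genes called were 45 in KO against 109 without it, 20 against 62 in KI and 53 against 118 in both together. The other counts over all genes ran from 22 to 929 in KO, 12 to 2287 in KI, 0 to 1355 in KO against KI (1 in the reported fit) and 23 to 1116 in both together. *Per3* in both together ranged from −0.62 to −0.12 when each library was left out, and passed without WT replicate 1. Signs turned only for small differences. *Per1* in KO ranged from −0.83 to 0.24, *Nr1d2* in KO from −0.29 to 0.015 and *Per2* in both together from −0.27 to 0.38 when libraries were left out, with 0.0071 for *Per2* under TPM and 0.048 under the block. In KO against KI *Dbp* ranged from −0.22 to 0.36 (−0.11 with library weights), *Arntl* from −0.093 to 0.19, *Npas2* from −0.12 to 0.48, *Tsc22d3* from −0.079 to 0.26 and *Bhlhe40* from −0.33 to 0.47 (−0.11 with library weights). *Bhlhe40* in KO was 0.013 under the block. The cause was not tested. Under TPM the median of all genes in KO against KI was 0.12, against 0.0088 in the reported fit. The correlations of *Dbp* with *Nr1d1* and *Npas2*, of *Nr1d1* with *Nr1d2* and of *Arntl* with *Cry1* kept their direction under the pseudocount of 0.1, the median of ratios and Spearman's rho.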
